A study of Mus musculus with 22 samples.

Results

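Immediate early and activity-induced genes, a list of 35, were examined in the motor cortex of mice with and without estrogen receptor beta. The members were found by gene symbol in the annotation of the deposited counts, and the counts of all features of 1 symbol were summed. Of the 35 symbols, 33 had a feature among the 15297 genes of the series, and 32 had reads. Dusp5 and Maff had no feature, and Sik1 had features but no read in any of the 22 biopsies. Immediate early genes are transcribed soon after a neuron fires or meets a growth factor, without the need for new protein, and their mRNAs are short-lived. In neurons, calcium entry through synaptic receptors activates kinases that act on CREB and on the SRF complex, and these switch on transcription factor genes such as Fos, Egr1 and Nr4a1 together with genes whose products act at synapses, such as Arc.

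The tissue was M1, the primary motor cortex, from C57BL/6 males 16 to 20 weeks old that were wild type (WT, 6 mice) or BERKO (5 mice), the name for mice that lack estrogen receptor beta, the product of Esr2. The labels describe the same housing for all mice and no treatment before they were anaesthetised with sodium pentobarbital and killed by cervical dislocation. They give no time of day or behaviour for any mouse. Needle punctures gave 1 right and 1 left biopsy per mouse, and 10 ng of RNA from each entered STRT, a method that tags and counts the 5′ ends of RNAs. The submitters had removed 1 BERKO sample as an outlier, and BERKO replicate 1 was not analysed here. A puncture biopsy holds neurons, glia and vessels, so fewer cells of a type and less RNA per cell cannot be told apart.

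The biopsies held 249751 to 2018833 reads each, the lowest being the left biopsy of BERKO replicate 5, which was counted in 1 lane where the others were counted in 3. Together the 32 members held 22064 of 19168116 gene reads. Per mouse the gene reads numbered 1353208 to 2722667 in WT and 968219 to 1626675 in BERKO. Esr2 itself had 3 reads in 1 of 12 WT biopsies and 10 reads in 2 of 10 BERKO biopsies. The labels do not give the part of Esr2 that is deleted, and so few reads do not check the genotypes. In earlier results of these data 3 WT libraries, both of replicate 1 and the left one of replicate 2, stood apart from the others, and values without them are given where they differ. With sides summed, leaving them out kept WT replicate 2 by its right biopsy alone. For left against right and the interaction, WT replicates 1 and 2 were left out whole. By the well codes in the column names, WT took rows A to C of the plate and BERKO rows D to F, so plate position cannot be told apart from genotype or side.

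Because the method counts 5′ ends, the region just before the annotated start of a member is shown for 3 members. They are those, of the 11 members at 20 CPM (counts scaled to a common library size) or more with a RefSeq entry, whose 250 bases before the start held the most motifs of activity-dependent factors, a match being a description of letters and not a site. The sequences and coordinates are those of RefSeq on GRCm38.p6, whereas the deposited coordinates given elsewhere in the text are mm9. The motifs were the full cyclic AMP response element TGACGTCA, its shorter form TGACG (which overlaps the full one), the AP-1 motif TGANTCA, the EGR motif GCGNGGGCG, the box TATAAA and the CArG box of SRF, searched on both strands. Capitals mark the matches, with CGTCA being the shorter form on the other strand. Nr4a1 lies on the plus strand at chr15:101266596-101266845 and held TGACG on the other strand 233, 213, 69 and 40 bases before the start and the EGR motif at 60. Plk2, on the plus strand at chr13:110394794-110395043, held the full element 62 bases before the start. Fos, on the plus strand at chr12:85473640-85473889, held TGACG at 129 and 66 bases and TATAAA at 33 bases before the start.
Nr4a1: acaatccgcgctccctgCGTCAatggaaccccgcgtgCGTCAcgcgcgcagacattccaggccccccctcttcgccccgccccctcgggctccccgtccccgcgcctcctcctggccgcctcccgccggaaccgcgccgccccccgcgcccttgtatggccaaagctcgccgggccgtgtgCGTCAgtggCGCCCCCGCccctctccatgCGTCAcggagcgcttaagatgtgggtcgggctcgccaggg
Plk2: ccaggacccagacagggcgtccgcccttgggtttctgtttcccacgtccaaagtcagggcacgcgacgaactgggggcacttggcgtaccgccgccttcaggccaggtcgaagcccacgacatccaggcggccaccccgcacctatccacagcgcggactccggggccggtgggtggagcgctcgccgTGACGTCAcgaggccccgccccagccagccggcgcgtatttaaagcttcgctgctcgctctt
Fos: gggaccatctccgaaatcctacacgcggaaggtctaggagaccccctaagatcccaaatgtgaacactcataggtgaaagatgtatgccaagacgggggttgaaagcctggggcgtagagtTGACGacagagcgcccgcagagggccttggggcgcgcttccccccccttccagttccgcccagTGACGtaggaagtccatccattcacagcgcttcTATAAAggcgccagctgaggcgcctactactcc

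Of the members, 27 had a RefSeq entry, with 39 windows between them. TGACG was found in 21 of the 39 windows, of 18 genes, and in 17.8% of all 32851 windows. The full element TGACGTCA was found in 4 of the 39, of 4 genes, against 1.55% of all windows, and the EGR motif in 9, of 9 genes, against 4.70%. TATAAA stood in 4 windows of 4 genes, against 12.4%. The CArG box stood in 5 windows of 2 genes, against 1.47%, and TGANTCA in 1, against 6.75%. Windows of 1 gene can overlap. The values of Fos, Nr4a1 and Plk2 in each mouse are given below.

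Most reads of the members, 70.3%, started in features classed as upstream or 5′ UTR, against 79.0% over all genes with reads. The feature with most reads was of such a class in 22 of 32 members, lay in coding sequence in 4 and in the 3′ UTR in 5. For Arc 67.2% of reads came from a 5′ UTR feature at 74503000 on the minus strand of chromosome 15, and for Jun 83.8% came from one at 94718888 on the minus strand of chromosome 4. For Fos 55.03% began at 86817289 on the plus strand of chromosome 12, in coding sequence, and 28.2% upstream. Jund had 94.6% of its reads in 1 feature of the 3′ UTR at 73224137 on the plus strand of chromosome 8. Nearly all reads of Egr1, 99.6%, lay in coding sequence, and 97.1% of all its reads in 1 feature at 35023369 on the plus strand of chromosome 18, so the values of Egr1 and Jund do not report on their annotated starts. Bdnf, which is transcribed from several promoters, had most of its reads at 3 separate 5′ UTR features on the plus strand of chromosome 2, at 109532688 (36.1%), 109516327 (32.9%) and 109533722 (14.8%).

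**Figure D1:**
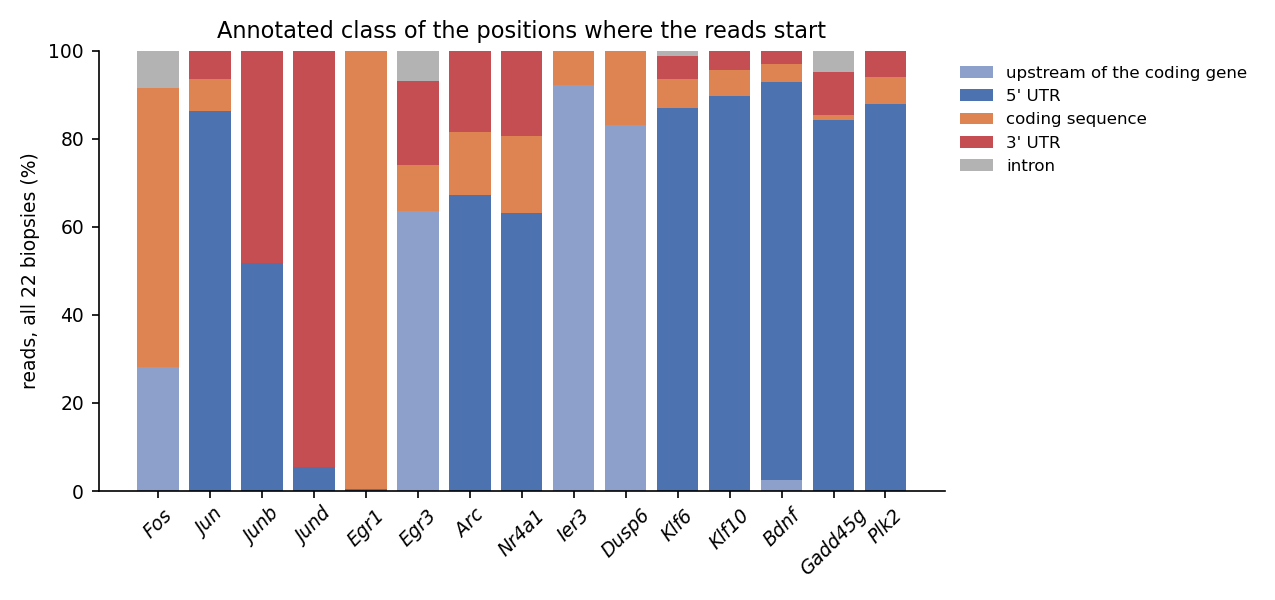
Stacked bars give, for the 15 members at 20 CPM or more in either genotype, the percentage of all reads over 22 biopsies by the annotated class of the feature where they start. Egr1 is almost all coding sequence and Jund almost all 3′ UTR, whereas the 5′ UTR holds 86.3% of the reads of Jun, 86.9% of Klf6 and 88.0% of Plk2.

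The first comparison asked whether these genes differ between BERKO and WT cortex. Of the 20 members with enough reads to be tested, none passed the threshold in edgeR's quasi-likelihood test, where 0.0776% of 9025 genes did. The threshold was an adjusted p under 0.05, with both sides of a mouse summed. None passed with limma-voom, which called 7 genes. The same held for DESeq2, which called 34 genes and gave no adjusted p to 3 of the 20 members. At an unadjusted p under 0.05 there were 3, all higher in BERKO (Dusp6, Egr1 and Bdnf), against 9.92% of all genes in either direction and 5.27% in that one. The fitted change was positive for 14 of 20 members, against 49.2% of all genes, and the median was 0.25 on the log2 scale against -0.01 over all genes tested. Of the other members with reads, 12 were left out for low counts, all with a mean under 5 CPM. Scaling on spike-in RNA instead moved the median over all genes to 0.19 and that of the members to 0.51. With it 45 genes passed, 43 of them higher in BERKO, where TMM scaling gave 7 with 4 higher, and still no member passed. Not one member separated the genotypes without overlap, which 1.33% of genes did. Levels below are CPM per mouse after TMM scaling, and changes are log2 fold changes of BERKO against WT with their standard error.

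**Figure D2:**
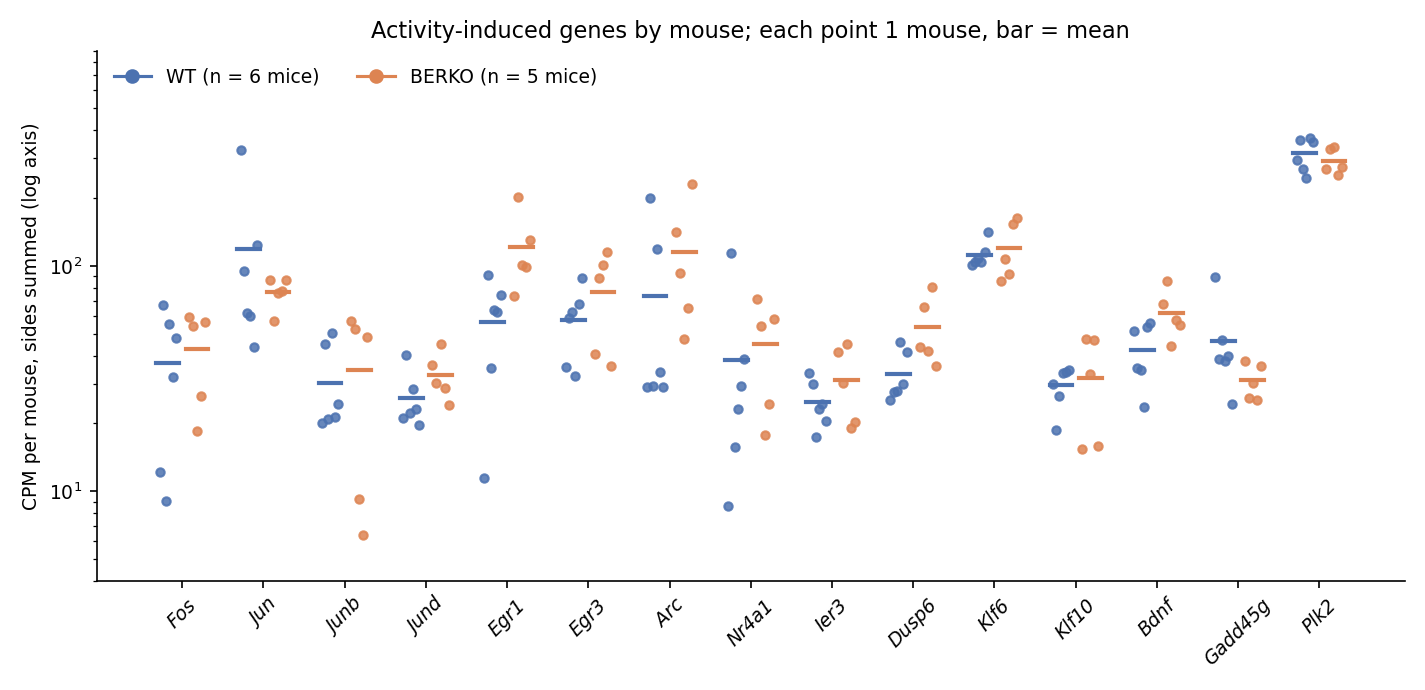
Each point is 1 mouse with both sides summed, on a log axis of CPM, for 6 WT (blue) and 5 BERKO (orange) mice, and bars are means. The genotypes overlap in each of the 15 members shown, and the points of Plk2 and Klf6 lie close together, at 245 to 370 CPM and 85.5 to 163 CPM.

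Among the transcription factors of the AP-1 family, which pair as Fos and Jun proteins, Fos ran from 9.07 to 66.8 CPM in WT with a median of 40.1. In BERKO replicates 2 to 6 it stood at 59.3, 54.1, 18.6, 26.6 and 56.4 CPM. The BERKO values lay inside the WT range, and the change was 0.24 ± 0.48 (adjusted p = 0.906). With reads at upstream and 5′ UTR features alone it was -0.084, and without the 3 libraries that stood apart it was -0.10. With any 1 mouse left out whole it ran from 0.034 to 0.50.

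Jun, the main partner of Fos, had 43.5 to 328 CPM in WT with a median of 78.3, and 86.2, 57.0, 75.9, 77.6 and 86.8 CPM in BERKO. All BERKO values fell in a narrow band, and WT replicate 1 stood far above the other mice. The change was -0.63 ± 0.51 (adjusted p = 0.718) with that mouse and 0.0089 without it. Both of its biopsies were high, at 332 CPM on the right and 312 on the left.

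Junb, a family member that restrains Jun in many contexts, had 20.0 to 50.6 CPM in WT with a median of 22.9, and 57.0, 52.7, 9.29, 6.38 and 48.2 CPM in BERKO. Its BERKO mice fell into a group of 3 at or above the upper WT values and a pair below all WT mice. The change was 0.22 ± 0.47 (adjusted p = 0.914). Jund, which is expressed steadily in most cells, had 19.7 to 40.4 CPM in WT with a median of 22.7. BERKO mice had 36.2, 30.3, 44.9, 28.7 and 24.1 CPM, 5 of 5 above the WT median, with a change of 0.35 ± 0.30 (adjusted p = 0.737). Fosl2 was low in both genotypes, at 6.03 ± 5.67 CPM over WT mice (SD, n = 6), against 10.3 ± 5.12 over BERKO mice (SD, n = 5), and Fosb had 8 reads in 2 biopsies.

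The EGR zinc-finger factors bind GC-rich promoters and are induced by strong synaptic input. Egr1 had 11.4 to 91.4 CPM in WT with a median of 63.2, and 73.2, 201, 101, 98.8 and 130 CPM in BERKO. All BERKO mice were above the WT median and 4 of 5 were above every WT mouse. Means were 56.4 ± 28.6 over WT mice (SD, n = 6), against 121 ± 49.3 over BERKO mice (SD, n = 5), a change of 1.12 ± 0.43 with an unadjusted p of 0.0244 and an adjusted p of 0.429. The sign held in all 18 alternatives, whose changes ran from 0.84 to 1.43 and adjusted p from 0.0553 to 0.582. The smallest p came from scaling on the ERCC spike-in RNA, and the largest from leaving out BERKO replicate 3 or 5. WT replicate 1 was the lowest mouse. It was also the lowest WT mouse for summed markers of excitatory neurons, at 2074 CPM against 2811 to 4602 in the other WT mice. That was not particular to these neurons, since it had the lowest WT sum in every marker list but blood and choroid plexus. Over 12 excitatory neuron markers the sum was 3177 ± 843 CPM over WT mice (SD, n = 6), against 4807 ± 820 over BERKO mice (SD, n = 5), with 9 of the 10 tested positive. Its part in the values of Egr1 was not tested.

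Egr3 had 32.4 to 88.1 CPM in WT with a median of 60.5, and 40.8, 88.7, 101, 115 and 36.1 CPM in BERKO. BERKO replicates 3 to 5 exceeded every WT mouse, and the other two lay in the lower part of the WT range. The change was 0.41 ± 0.31 (adjusted p = 0.678). Egr2 and Egr4 had means of 1.95 and 1.87 CPM over the 11 mice and were not tested.

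Arc is a synaptic protein that removes AMPA receptors from synapses and is transcribed almost at once on firing. It had 29.0 to 199 CPM in WT with a median of 31.7, and 142, 93.1, 47.2, 64.8 and 230 CPM in BERKO. In WT 4 of 6 mice lay together at 29.0 to 34.0 CPM and replicates 2 and 4 were high, at 199 and 119 CPM. All BERKO mice were above the WT median. The change was 0.67 ± 0.68 (adjusted p = 0.790), with leave-one-out values from 0.26 to 1.28. Npas4, a neuron-specific factor that responds to calcium alone, had a mean of 4.33 CPM over all mice and was not tested between genotypes.

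The NR4A orphan nuclear receptors are rapid transcription factors, and of the 3 only Nr4a1 reached the level for testing between genotypes. Its WT values ran from 8.58 to 114 CPM with a median of 26.3, and BERKO mice had 71.6, 54.1, 17.8, 24.4 and 58.3 CPM. The top WT mouse was replicate 2, whose right biopsy had 147 CPM. The change was 0.27 ± 0.63 (adjusted p = 0.918), and -0.12 without the 3 libraries that stood apart, where that right biopsy alone stands for replicate 2. With any 1 mouse left out whole it ran from 0.051 to 1.01.

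Dusp1, Dusp5 and Dusp6 encode phosphatases that switch MAP kinases off again, Dusp6 being selective for ERK. Dusp6 had 25.4 to 46.2 CPM in WT with a median of 28.9, and 43.9, 65.7, 41.8, 80.7 and 36.1 CPM in BERKO. Every BERKO mouse exceeded the WT median and 2 exceeded every WT mouse. Its change of 0.70 ± 0.27 had the smallest unadjusted p of the members, 0.0163, and an adjusted p of 0.390. Dusp1 had 8.20 ± 3.98 CPM over WT mice (SD, n = 6), against 14.8 ± 6.95 over BERKO mice (SD, n = 5), 4 of 5 BERKO mice being above all WT mice, with a change of 0.84 ± 0.51 (adjusted p = 0.586).

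The secreted products included Bdnf, the neurotrophin that acts on the receptor TrkB. It had 23.6 to 55.9 CPM in WT with a median of 43.3, and 67.8, 85.9, 44.1, 57.4 and 54.5 CPM in BERKO. All BERKO mice were above the WT median, 3 of them above every WT mouse. The change was 0.55 ± 0.26, with an unadjusted p of 0.0402 and an adjusted p of 0.479. Over the 3 features that hold most of its reads the changes were 0.31 ± 0.39, 0.24 ± 0.40 and -0.07 ± 0.62. Nptx2, a pentraxin that clusters AMPA receptors, had 0 to 3.14 CPM in WT and 0.77, 17.3, 6.97, 0 and 16.5 CPM in BERKO, and was not tested between genotypes.

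Gadd45g, a gene linked to stress and DNA demethylation, had a negative change. WT mice had 24.4 to 89.4 CPM with a median of 39.3, and BERKO mice had 37.7, 26.0, 30.2, 25.5 and 36.1 CPM, all below the WT median. The change was -0.58 ± 0.30 (unadjusted p = 0.0626, adjusted p = 0.522), and WT replicate 1 was again the top mouse. Without that mouse it was -0.28. Gadd45b had 15.3 ± 5.42 CPM over WT mice (SD, n = 6), against 10.4 ± 5.49 over BERKO mice (SD, n = 5), a change of -0.53 ± 0.49 (adjusted p = 0.754).

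Of the Krüppel-like factors, Klf6 had 101 to 141 CPM in WT with a median of 106, and 85.5, 107, 92.2, 154 and 163 CPM in BERKO, a change of 0.11 ± 0.19 (adjusted p = 0.891). Klf10 had 18.7 to 34.6 CPM in WT with a median of 31.8, and 15.4, 47.6, 33.3, 46.7 and 15.8 CPM in BERKO, a change of 0.09 ± 0.33 (adjusted p = 0.948). The BERKO mice of Klf10 lay on both sides of the WT range.

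Plk2, a kinase of synaptic homeostasis, had the lowest spread between mice of the 20 members tested, as a biological coefficient of variation. It had 245 to 370 CPM in WT with a median of 325, and 269, 330, 335, 252 and 276 CPM in BERKO, with a change of -0.11 ± 0.14 (adjusted p = 0.850). All BERKO values fell within the WT range. Ier3, a survival gene, had 17.4 to 33.6 CPM in WT with a median of 23.8, and 41.6, 30.3, 44.9, 19.1 and 20.3 CPM in BERKO, a change of 0.33 ± 0.31 (adjusted p = 0.766). Ier5 had 8.90 ± 5.38 CPM over WT mice (SD, n = 6), against 4.53 ± 3.96 over BERKO mice (SD, n = 5), with a change of -0.93 ± 0.77 (adjusted p = 0.717), and Btg2 had a change of -0.08 ± 0.66 (adjusted p = 0.980). The other untested members, Klf2, Klf4, Atf3, Trib1, Ier2, Nr4a2 and Nr4a3, had means of 1.41 to 4.16 CPM over the mice.

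**Figure D3:**
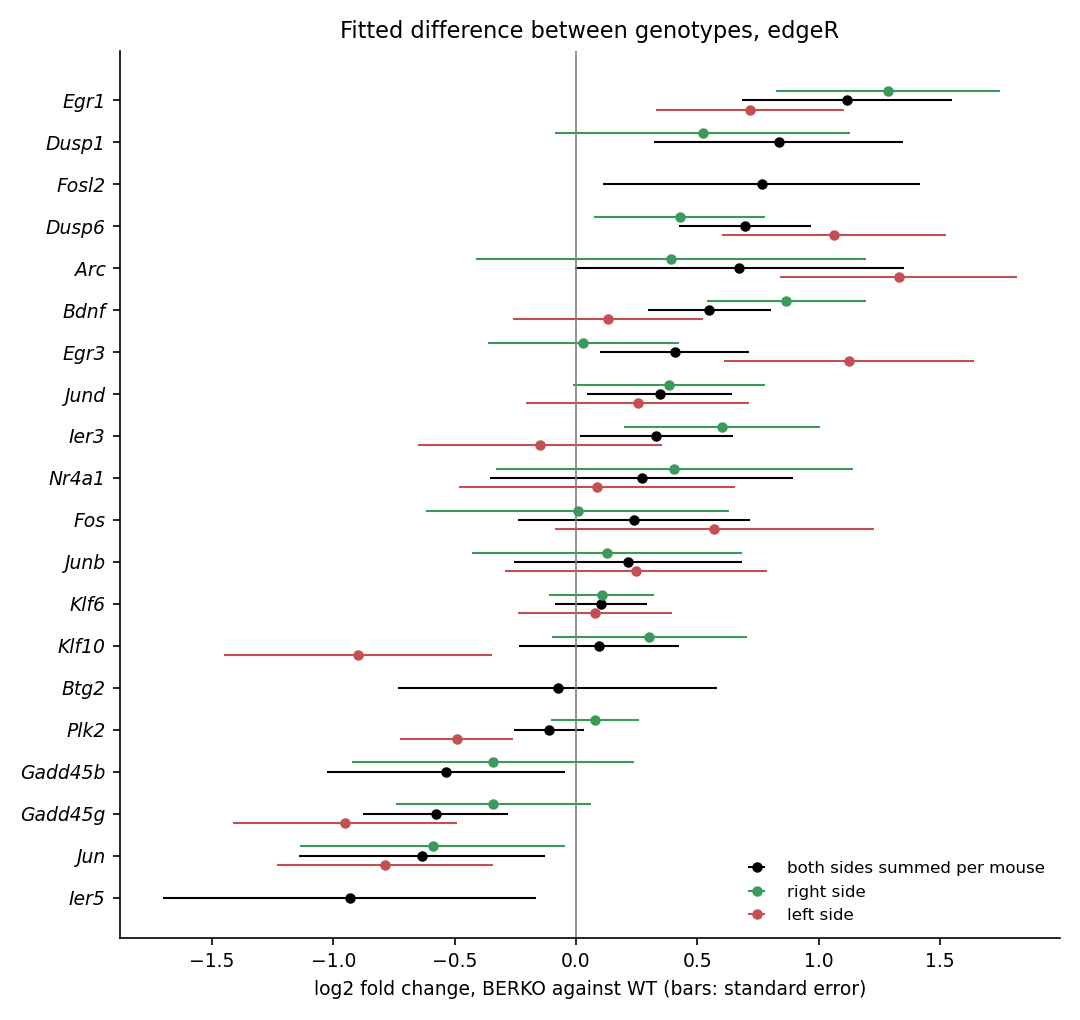
Points are log2 fold changes of BERKO against WT and bars their standard errors, for the 20 members tested with both sides summed (black), on the right (green) and on the left (red), ordered by the summed value. Egr1 is highest at 1.12 and Ier5 lowest at -0.93, and the 2 sides differ in sign for Klf10, Ier3 and Plk2.

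At the level of single features, 25 features of 17 members were tested and none passed the threshold in edgeR, which 0.114% of 13128 features did. There were 3 at an unadjusted p under 0.05, against 11.6% of features. The Egr1 coding-sequence feature averaged 51.4 CPM in WT and 106 in BERKO, a change of 1.14 ± 0.37 (adjusted p = 0.254). In Plk2 a 5′ UTR feature at 111185256 on the plus strand of chromosome 13 averaged 285 CPM in WT and 214 in BERKO, a change of -0.33 ± 0.15 (adjusted p = 0.421). A 3′ UTR feature of the same gene at 111190567 averaged 12.2 and 24.4 CPM, a change of 1.08 ± 0.37 (adjusted p = 0.256). Over all genes, the share of reads that start in coding sequence or 3′ UTR was 11.3 to 16.7% in WT mice and 16.1 to 19.1% in BERKO mice, and its part in the values of Egr1, whose reads are almost all of that class, was not tested. With upstream and 5′ UTR features alone, 15 members were tested and none had an unadjusted p under 0.05, where 592 of 6867 genes did. Egr1 was not among them.

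Each side was then compared alone, 1 biopsy a mouse. On the right none of 17 members passed the threshold in edgeR (0.065% of genes). None passed in DESeq2, which called 21 genes and gave no adjusted p to 2 of the 17. In edgeR 2 members had an unadjusted p under 0.05, against 8.25% of 7696 genes. These were Bdnf, with a change of 0.87 ± 0.33, and Egr1, with 1.29 ± 0.46 (adjusted p = 0.480 for each). In right biopsies Egr1 had 9.51 to 105 CPM in WT with a median of 61.1, and 73.2, 236, 91.1, 120 and 163 CPM in BERKO, with 3 BERKO biopsies above all WT ones. Bdnf had 18.3 to 54.2 CPM in WT with a median of 43.8, and 99.2, 112, 37.4, 49.7 and 73.1 CPM in BERKO, again with 3 above all WT biopsies.

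On the left none of 15 members passed in edgeR, nor did any other gene (0% of 6616). None passed in DESeq2, which called 5 genes. In edgeR 5 members had an unadjusted p under 0.05, against 6.76% of genes. Arc (1.33 ± 0.49, adjusted p = 0.659), Egr3 (1.13 ± 0.51, adjusted p = 0.702) and Dusp6 (1.06 ± 0.46, adjusted p = 0.696) were higher in BERKO (3.19% of genes), and Plk2 (-0.49 ± 0.23, adjusted p = 0.715) and Gadd45g (-0.95 ± 0.46, adjusted p = 0.734) lower (3.57%). Left biopsies had 18.5 to 149 CPM of Arc in WT with a median of 39.5, and 118, 110, 80.2, 57.9 and 297 CPM in BERKO. The 5 BERKO biopsies exceeded all WT left biopsies but that of replicate 4. When no gene was left out for low counts, Arc passed on the left in edgeR (adjusted p = 0.0273), where 22 of 13367 genes were called. It was the only member called in any comparison under any alternative. Without the libraries that stood apart, 1 member had an unadjusted p under 0.05 on the left, where 303 of 6738 genes did. The difference of the genotype change between the sides was tested in 1 model, and none of 23 members had an adjusted or unadjusted p under 0.05, against 3.15% of genes with an unadjusted one, and DESeq2 called none.

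Left and right biopsies were compared within mice. None of 23 members passed in edgeR, nor did any other gene (0%). DESeq2 called 21 of the 2055 genes to which it gave an adjusted p. None of them was a member, and 20 of the 23 members had no adjusted p there. The change of left against right was negative for 19 of 23 members, where it was positive for 43.7% of all genes, and its median was -0.33 on the log2 scale against -0.06 over all genes tested. Klf10 was the 1 member with an unadjusted p under 0.05 (-0.80 ± 0.36, adjusted p = 0.825), against 5.45% of genes in either direction and 3.36% lower on the left. Its right biopsies in BERKO had 19.5, 67.0, 43.2, 55.2 and 20.4 CPM, and the left ones of the same mice 11.5, 19.6, 13.4, 16.5 and 9.17 CPM. The left was lower in 5 of 5 BERKO mice and in 2 of 6 WT mice.

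Within WT mice alone none of 23 members passed in edgeR (0% of genes), and 0 had an unadjusted p under 0.05 (4.41% of genes). DESeq2 called 3 genes there, none of them a member, and gave an adjusted p to 2 of the 23 members. Within BERKO mice alone there were 3 of 19, all lower on the left and none past the threshold (4.66% of genes, and 2.65% lower on the left), namely Klf10 (-1.43 ± 0.54), Nr4a1 (-1.11 ± 0.49) and Egr1 (-0.64 ± 0.31), each with an adjusted p of 0.9997. Nr4a1 had 76.5, 65.8, 18.7, 31.7 and 82.8 CPM in the right biopsies and 66.0, 36.0, 15.6, 0 and 22.9 in the left ones, lower on the left in 5 of 5 BERKO mice and 3 of 6 WT mice. The left biopsy of replicate 5, with 0, is the shallow one of 239058 gene reads. In the interaction test none of these 3 genes had an unadjusted p under 0.05. The estimated differences were -1.11 ± 0.71 for Klf10, -1.08 ± 0.69 for Nr4a1 and -0.70 ± 0.45 for Egr1. The test does not show that the change was the same in both genotypes.

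**Figure D4:**
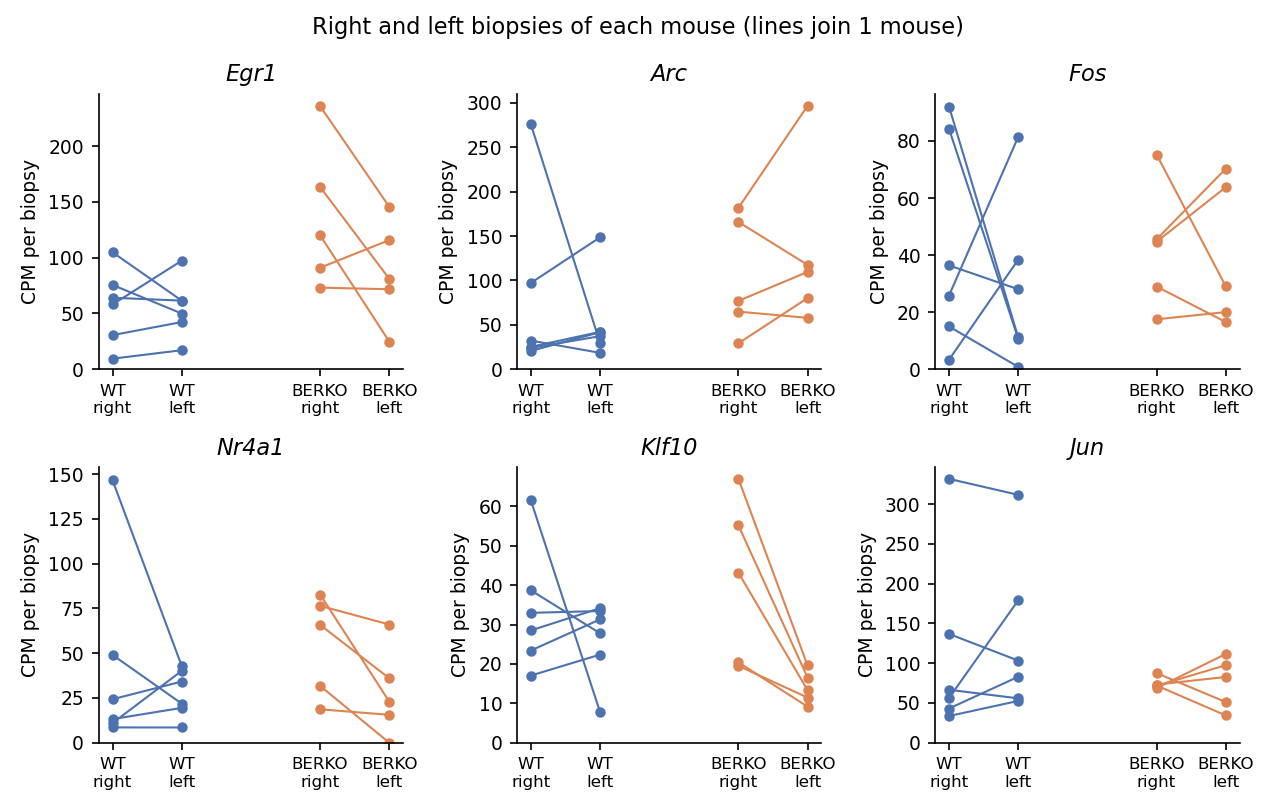
Lines join the right and left biopsies of 1 mouse for 6 members, in CPM per biopsy, WT in blue and BERKO in orange. All 5 BERKO lines of Klf10 and Nr4a1 fall from right to left, while Arc and Fos in WT fall or rise steeply in single mice, as in WT replicate 2 with 276 CPM of Arc on the right and 29.8 on the left.

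The spread between mice of 1 genotype was described next. The biological coefficient of variation, the spread that edgeR assigns to mice after the counting error is removed, was compared with the trend fitted over genes of like level. It exceeded 1.5 times the trend in 5 of the 20 members tested, 25% of them, against 2.16% of 9025 genes. The 5 were Arc (74.1% against a trend of 25.5%), Jun (54.7% against 25.1%), Nr4a1 (68.3% against 32.5%), Egr1 (48.5% against 26.0%) and Fos (52.8% against 33.0%). It lay above the trend in 10 of 20 members, against 35.7% of genes. Plk2 (19.5%), Klf6 (23.0%), Bdnf (29.1%) and Dusp6 (30.4%) lay at or below their trend. This comparison was chosen after earlier results of these data were known and has no test of its own. Without WT replicate 1, 3 members were over that mark, against 0.820% of genes. They were Arc, Nr4a1 and Junb, which was not among the 5, with Jun at 1.08 times the trend and Egr1 at 1.17 times. Without WT replicate 2 the 3 were Arc, Jun and Egr1, against 1.97% of genes, with Nr4a1 at 1.21 times and Fos at 1.44 times. Without the libraries that stood apart they were Arc, Nr4a1 and Fos, against 0.889% of genes. With the replicate number as a block 1 member was over the mark, against 0.173% of genes.

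**Figure D5:**
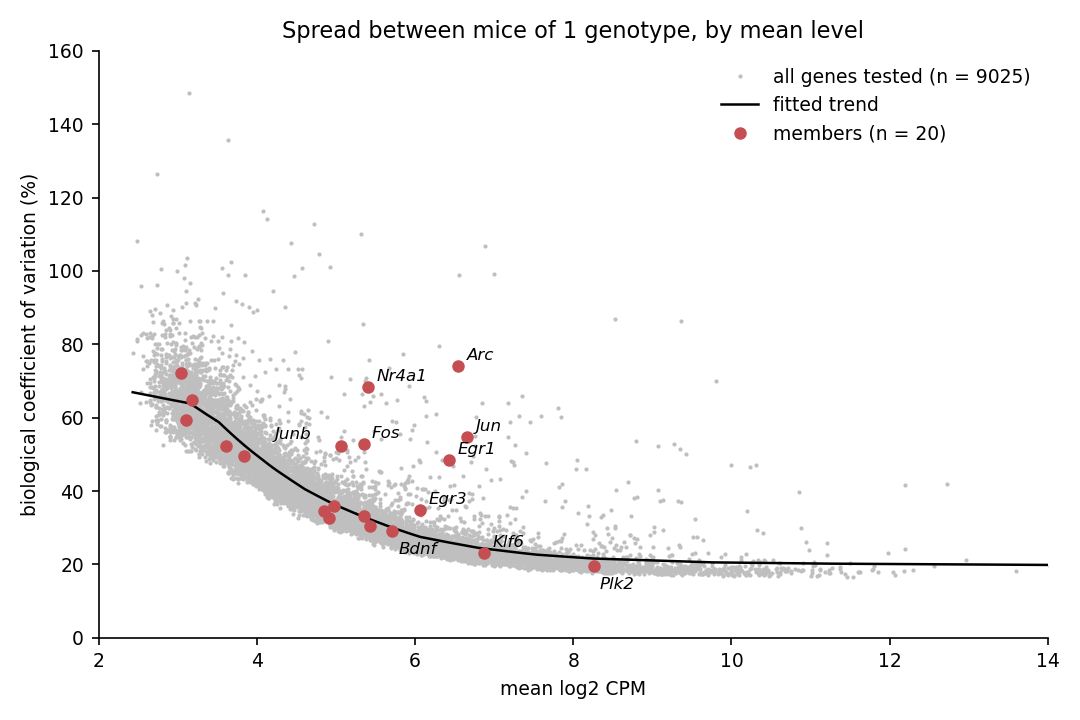
Each grey point is 1 of 9025 genes, by mean log2 CPM and by biological coefficient of variation between mice in percent, the black line is the fitted trend and red points are the 20 members tested. Arc, Nr4a1, Jun, Egr1 and Fos lie well above the line, and Plk2, Klf6 and Bdnf on or under it. The plot leaves out 4 genes beyond its axes.

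The last comparison asked whether the members were high in the same mice. Levels per mouse, as log2(CPM + 1) with the genotype means removed, were correlated over the 11 mice with those of Egr1, for 19 members with a mean of 5 CPM or more, with exact permutation p over all 86400 orders within genotype. No member passed after Benjamini-Hochberg adjustment over the 19. At an unadjusted exact p under 0.05 there were 4, and 0 when WT replicates 1 and 2 were left out. Fos (r = 0.69, rho = 0.68, exact p = 0.0324, adjusted p = 0.205) and Nr4a1 (r = 0.69, rho = 0.54, exact p = 0.0453, adjusted p = 0.215) had r of 0.90 and 0.84 when the 2 mice farthest from the median of Egr1, WT replicate 1 and BERKO replicate 2, were left out. Ier5 (r = 0.77, rho = 0.59, exact p = 0.00809, adjusted p = 0.0937) and Gadd45g (r = -0.84, rho = -0.69, exact p = 0.00986, adjusted p = 0.0937) had 0.33 and -0.45 without them, so both rest on those mice. Jun, at r = -0.67 (rho = -0.25, exact p = 0.0988), stood at 0.07 without them.

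With Fos in place of Egr1, a choice made after the values were seen, 2 of the 19 passed the adjustment. Nr4a1 followed Fos with r = 0.85 (rho = 0.81, exact p = 0.00161, adjusted p = 0.0223), and 0.83 without the 2 mice farthest from the median, WT replicates 1 and 3. Junb followed with r = 0.69 (rho = 0.65, exact p = 0.00235, adjusted p = 0.0223), and 0.82 without them. Arc had r = 0.75 (rho = 0.71, exact p = 0.0216, adjusted p = 0.137), and Egr3 -0.23 (rho = -0.27, exact p = 0.488). In the BERKO group, replicates 2, 3 and 6 were the 3 highest for each of Fos, Junb, Nr4a1 and Arc, and replicates 4 and 5 the lowest. Egr1 differed, with replicates 3 and 6 the highest and replicate 2 the lowest, at 73.2 CPM against 98.8 or more. For Egr3 replicates 3, 4 and 5 were the highest. In WT, replicate 2 was the highest mouse for Fos, Egr1, Arc and Nr4a1 and replicate 4 the highest for Junb. When any 1 mouse was left out, r with Fos stayed between 0.81 and 0.93 for Nr4a1 and between 0.63 and 0.76 for Junb. The adjusted p stayed under 0.05 in 4 of 11 cases for Nr4a1 and 5 of 11 for Junb. Without WT replicates 1 and 2 neither passed, with r = 0.82 for Nr4a1 and 0.69 for Junb (permutation test, adjusted p = 0.109 for each).

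Upstream of the members, 30 genes of the CREB, SRF, MEF2, calmodulin kinase and MAP kinase pathways were listed and 21 were tested in BERKO against WT. None passed in edgeR, 2 had an unadjusted p under 0.05, both higher (9.92% of all genes, 5.27% higher), and the median change was 0.11. The 3 of smallest p were Camk2a, a kinase of excitatory synapses (1286 ± 305 CPM in WT, 1888 ± 301 in BERKO, change 0.55 ± 0.14, adjusted p = 0.179), Camk4, which phosphorylates CREB (0.58 ± 0.25, adjusted p = 0.444), and Mef2d (0.53 ± 0.27, adjusted p = 0.522). Camk2a is also one of the excitatory neuron markers summed above.

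Of 40 other genes known to follow neuronal activity, 23 were tested, none passed in edgeR and 4 had an unadjusted p under 0.05, all higher (9.92% of all genes, 5.27% higher), with a median change of 0.19. Nrn1, which promotes neurite growth (0.56 ± 0.20, adjusted p = 0.362), Vgf, a neuropeptide precursor (0.55 ± 0.23, adjusted p = 0.429), and Arl4d, a small GTPase (0.86 ± 0.36, adjusted p = 0.429), had the smallest p. Against right, the left side had a negative change in 18 of 25 genes of this list, with a median of -0.27, where 43.7% of all genes were positive with a median of -0.06.

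Glucocorticoid and heat shock genes respond to handling and stress as well. Of 14 glucocorticoid-response genes 10 were tested and 1 passed in edgeR, where 0.0776% of all genes did. It was Cdkn1a, the cell-cycle inhibitor p21, at 42.4 ± 16.5 CPM over WT mice (SD, n = 6), against 109 ± 29.9 over BERKO mice (SD, n = 5), a change of 1.37 ± 0.26 (adjusted p = 0.0278). The median of that list was 0.08. Of the 12 heat shock genes 11 were tested and none passed in edgeR. At an unadjusted p under 0.05 there was 1, against 9.92% of all genes in either direction and 5.27% higher. It was Hsp90aa1 (0.28 ± 0.12, adjusted p = 0.458), and the median over the list was 0.004. All these lists were chosen with earlier results known, and Cdkn1a was among the genes those results had named.

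Markers of other cell types were summed in the same mice. Those of microglia stood at 729 to 1216 CPM in WT and 1251 to 1505 in BERKO, those of astrocytes at 10115 to 16126 and 14361 to 18233, and those of oligodendrocytes at 2245 to 12809 and 5895 to 15245. Positive changes numbered 10 of 12 tested markers for microglia, 12 of 12 for astrocytes, 9 of 10 for oligodendrocytes, 8 of 9 for endothelial cells, 7 of 9 for pericytes and smooth muscle and 7 of 8 for meningeal fibroblasts. They numbered 3 of 9 for interneurons, 3 of 5 for oligodendrocyte precursors, 2 of 4 for striatal neurons, 1 of 2 for choroid plexus and 1 of 1 for blood, where 49.2% of all genes were positive. No marker passed the threshold in edgeR. Of the hemoglobin and red-cell list 5 of 6 genes had no read or no feature under their symbol, which were not told apart. WT replicate 1 was the top mouse for Jun and Gadd45g and the lowest for Egr1 and Nr4a1. It had the lowest WT sum in every list, neurons included, but blood and choroid plexus, where it had the highest. Its sums were 2245 against 6745 or more for oligodendrocyte and 1752 against 4893 or more for meningeal fibroblast markers. For choroid plexus the sum was 462 against 212 or less. The part of tissue makeup in the members' values was not tested.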

How the data were processed

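RNA 5′ ends were measured by STRT in 22 biopsies of 11 mice. The deposited values are raw read counts for features, which are regions of 5′ ends with an mm9 position, strand, symbol and class. The table has 64 columns, 1 per biopsy and lane. Lanes were summed per biopsy, and mouse numbers were taken from the final digit of the column names. Bowtie, TopHat2 2.0.12 and the build mm9 are named per the submitters' processing notes. The drawing of features and the filtering of reads are not given in the sources used. Of 112366 endogenous features, 95410 had a single symbol and were summed to 15297 genes. The rest held 5.22% of endogenous reads, while 38 spike-in features, 19 on spike-in sequences and 37 on a ribosomal repeat were left out. A deposited table of ratios was not used. Reads were counted after PCR without molecular identifiers, and counting error sets the precision of low genes.

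Tests used edgeR 4.0.16 in R 4.3.3 (TMM scaling, default expression filter, robust quasi-likelihood test, two-sided, Benjamini-Hochberg adjustment over all genes tested, threshold 0.05), with DESeq2 1.42.0 and limma 3.58.1 as alternatives. CPM is scaled to the reads of the genes that passed that filter, after TMM, and TMM factors ran from 0.948 to 1.09. Standard errors are |log2 change|/√F. For genotypes the 2 sides of a mouse were added up, and for sides the model held each mouse as a block. The labels name the mouse of each biopsy, and this is where the pairing comes from. Deviations of the left and right biopsies of a mouse correlated by -0.11 to 0.32, over 0.1 in 2 of 11 mice. Among right biopsies of its genotype, the left biopsy correlated best with that of its own mouse in 4 of 11 mice. The values themselves thus bear the pairing out only weakly. Values in every mouse are given for the 15 members with a mean of 20 CPM or more in a genotype, and for each other list the 3 genes of smallest p are named. No transcript of a member shared 100 or more bases at 95% identity with that of another gene on the same strand. The members, lists and rules were chosen with earlier results of these data known. The edgeR fits were also run on simulated counts in which all genes had 1 common spread, unlike the members. No support is drawn from that run. P-values of the genotype tests are set against the spread between mice, which includes that of puncture and library. Those of left against right and of the interaction, with the mouse as a block, are set against the spread between biopsies within mice. Those of the correlations come from the orders of the mice.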

Additional observations from a re-analysis of the deposited data

Results flagged for a closer look

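For the 20 members tested, the mice of each genotype were screened for a highest or lowest value far from the nearest other, and for the 15 members at 20 CPM or more so were the biopsies of each genotype and side (Dixon's 95% critical values). Of the 100 groups of values screened, 13 held a sample that lay far from the others. The critical values flag about 1 in 20 groups by chance when values are normally distributed. These groups are not independent, since the CPM of a mouse comes from its biopsies. No rate over all genes is given, so the 13 are not read as an excess. Per mouse these were WT replicate 1 for Jun, at 327.8 CPM against 43.5 to 124 in the other WT mice, and for Gadd45g, at 89.4 CPM against 24.4 to 47.1. WT replicate 2 stood out for Nr4a1, at 114.2 CPM against 8.58 to 38.6, and WT replicate 6 for Klf6, at 140.8 CPM against 101 to 115.

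Among single biopsies, the right one of WT replicate 1 had 331.7 CPM of Jun, against 33.6 to 137 in the other WT right biopsies. The right biopsy of WT replicate 2 had 276.2 CPM of Arc, against 20.7 to 97.1, and 146.6 CPM of Nr4a1, against 8.55 to 49.0. Its left biopsy had 48.5 CPM of Jund, against 17.4 to 25.4. The left biopsy of WT replicate 4 was the highest for Arc, at 148.5 CPM against 18.5 to 42.1, and the lowest for Plk2, at 149.8 CPM against 344 or more. In BERKO, the left biopsy of replicate 6 had 296.6 CPM of Arc against 57.9 to 118, and the right biopsy of replicate 4 had 87.6 CPM of Jun against 68.8 to 73.2. The right biopsy of WT replicate 3 had the lowest Ier3, at 9.001 CPM against 22.4 to 30.4. Arc was the gene with most such biopsies, in 3 of the 4 groups of genotype and side.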

How the results depend on the processing

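No member was called in any comparison under any alternative, with 1 exception. This was Arc on the left side with no low-count filter (1 member called, where 22 of 13367 genes were). DESeq2 gave no adjusted p to 20 of 23 members for left against right and 21 of 23 within WT. Between the genotypes it gave none to 3 of 20 with sides summed and 2 of 17 on the right. With the replicate block, in which WT and BERKO mice of the same number share only that number (their deviations correlated by -0.03 to 0.05), 0 members were called between the genotypes; with no replicate block for left against right the count was also 0. The number of members with a spread over 1.5 times the trend was 3 with spike-in scaling (1.385% of genes), 3 without the libraries that stood apart (0.889%) and 1 with the replicate block (0.173%), and ran from 3 to 6 with 1 mouse left out. With Fos as the reference 2 members passed, where Egr1 gave 0, and those 2 did not pass without WT replicates 1 and 2.

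Directions turned in 20 of 371 alternative genotype values and 16 of 366 for left against right, none of them past a threshold. Between genotypes Btg2 had 0.13 with spike-in scaling, 0.048 without the libraries that stood apart and 0.16 with limma-voom. Plk2 had 0.10 with spike-in scaling. Fos had -0.084 with promoter features only, and -0.10 without the libraries that stood apart, where Jun had 0.16 and Nr4a1 -0.12. With the replicate block Jun had 0.070 and Junb -0.11, and Junb had -0.019 with limma-voom and -0.024 when thinned to the shallowest mouse. Left against right, Arc had -0.13 with no replicate block, and Nptx2 0.081 with DESeq2. Jund had -0.13 with spike-in scaling and -0.0253 without WT replicates 1 and 2, the mice of the libraries that stood apart. With 1 mouse left out, the genotype change ran from -0.24 to 0.22 for Btg2, -0.81 to 0.0089 for Jun, -0.024 to 0.47 for Junb, -0.10 to 0.27 for Klf10 and -0.030 to 0.21 for Klf6. For left against right it ran from -0.11 to 0.59 for Btg2, -0.33 to 0.043 for Gadd45g, -0.26 to 0.17 for Junb, -0.083 to 0.13 for Jund and -0.17 to 0.011 for Plk2. The correlation of Jun with Egr1 ran from -0.76 to 0.080. The cause was not tested. Depth limited 12 members with reads, which were too low to test.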
